A study of Homo sapiens with 9 samples.

Results

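The genes described here encode the machinery that makes and ends RNA polymerase II transcripts and that removes the RNA:DNA hybrids, called R-loops, which form behind the polymerase. They comprise 54 genes listed by symbol from general knowledge of this pathway, with earlier results of these data already known. All 54 were found in the deposited table of 11350 genes: 12 subunits of RNA polymerase II, 5 initiation factors, 11 factors of promoter-proximal pausing and pause release, 14 elongation factors and kinases, 6 factors of 3′ end processing and termination, and 6 R-loop and topology factors. RNA was sequenced from 3 lines of HCT116 cells, a human colorectal carcinoma line, with 3 biological replicates of each line and no treatment. HUWE1-P cells are the parental line. In HUWE1-WT and HUWE1-CS cells the end of the endogenous gene for the ubiquitin ligase HUWE1 was replaced from a repair template that also codes, behind a P2A peptide, for blasticidin resistance, with the wild-type cysteine at the catalytic position in HUWE1-WT cells and serine in its place in HUWE1-CS cells. Both edited lines were grown from single cell clones after puromycin and blasticidin selection, and how many clones stand behind the 3 replicates of a line is not given in the sources used here, so that p-values measure the spread between these libraries. The question was whether mRNAs of this machinery differ between cells with catalytically mutated HUWE1 and either control line.

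RNA polymerase II is assembled from a large catalytic subunit, whose C-terminal domain is a repeat that kinases modify through the transcription cycle, and smaller subunits, several of them shared with the other nuclear polymerases. Soon after initiation the polymerase pauses, held by DSIF and NELF, until the kinase P-TEFb phosphorylates them and the polymerase. P-TEFb is itself kept inactive by HEXIM proteins and LARP7 on the 7SK RNA. Elongation then proceeds with SPT6, FACT and the PAF1 complex, and ends when the cleavage and polyadenylation machinery cuts the transcript and the exonuclease XRN2 follows the polymerase. RNase H enzymes, the helicase aquarius and topoisomerase I remove or prevent R-loops, which are a known source of collisions between polymerases and replication forks.

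Total counts were 1610984 in the shallowest and 2060349 in the deepest library, where 3 counts are worth 1.86 and 1.45 CPM (TMM-normalized counts relative to the library total), and the members' counts lay between 24 and 1350 per library. The median coefficient of variation of the 54 genes between the 3 libraries of a line was 7.15% in HUWE1-P, 6.42% in HUWE1-WT and 7.11% in HUWE1-CS cells. HUWE1 mRNA itself was measured at 561, 545 and 522 CPM in HUWE1-P, 498, 453 and 455 CPM in HUWE1-WT and 345, 323 and 339 CPM in HUWE1-CS cells. It was lower in every HUWE1-CS library than in every control library (log2 fold change -0.69 against HUWE1-P, adjusted p = 1.06e-15, and -0.48 against HUWE1-WT, adjusted p = 4.68e-09, edgeR's quasi-likelihood test). Every HUWE1-WT library also lay below every HUWE1-P library. Counts per gene do not show which codon a transcript carries. Of 14 markers of colon epithelium 10 were in the table, with summed levels of 4103 to 4868 CPM and with VIL1, CDX1, LGALS4 and GPA33 not listed, and of 12 markers of other cell types only COL1A1 was, at 8.71 to 14.8 CPM in HUWE1-CS and 18.0 to 25.6 CPM in the control libraries.

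Genes of this list that differed in HUWE1-CS cells lay among the pausing factors, the polymerase subunits and the PAF1 complex. Their share did not exceed that of all genes in either comparison, and lay near it against HUWE1-WT cells. Of the 54 genes, 5 passed in the comparison with HUWE1-P cells at a false discovery rate (FDR) of at most 0.01, or 9.26%, beside 17.0% of all 11350 genes; all 5 were higher (POLR2K, POLR2L, SUPT4H1, NELFCD and HEXIM1), beside 8.46% of all genes called higher and 8.58% called lower. Against HUWE1-WT cells 7 genes were called, or 13.0% beside 15.5% of all genes. POLR2A, SUPT4H1, HEXIM1, LEO1 and RTF1 were higher, where 7.42% of all genes were, and PAF1 and CTR9 were lower, where 8.08% of all genes were. When libraries were scaled by their total counts in place of TMM, 6 members were called against HUWE1-P cells (4 higher and 2 lower) and 7 against HUWE1-WT cells (4 higher and 3 lower). The shares over all genes with that scaling are not given here. Both comparisons use the same HUWE1-CS libraries. In bulk libraries such as these, fewer cells expressing a gene and less of its RNA per cell cannot be told apart. SUPT4H1 and HEXIM1 were called in both, 10 genes in at least 1 of them and 44 in neither. HUWE1-WT against HUWE1-P cells gave 0 called members in edgeR's quasi-likelihood test, beside 0.0617% of all genes, and 0 by DESeq2 and limma-voom. An unadjusted p under 0.05 in edgeR's quasi-likelihood test was reached there by 2 members, beside 629 of all 11350 genes.

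The sizes were small throughout. The median log2 fold change of the 54 genes was 0.04 against HUWE1-P and 0.06 against HUWE1-WT cells, where the median over all genes was -0.01 and -0.000593, and their median absolute log2 fold change was 0.147 and 0.161, against 0.223 and 0.220 for all genes. In 11 of the 54 genes (20.4%) every HUWE1-CS library was above (8 genes) or below (3 genes) all 6 controls, beside 26.3% of all genes. The plot of differences by role shows all 54 genes with their intervals.

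**Figure D1:**
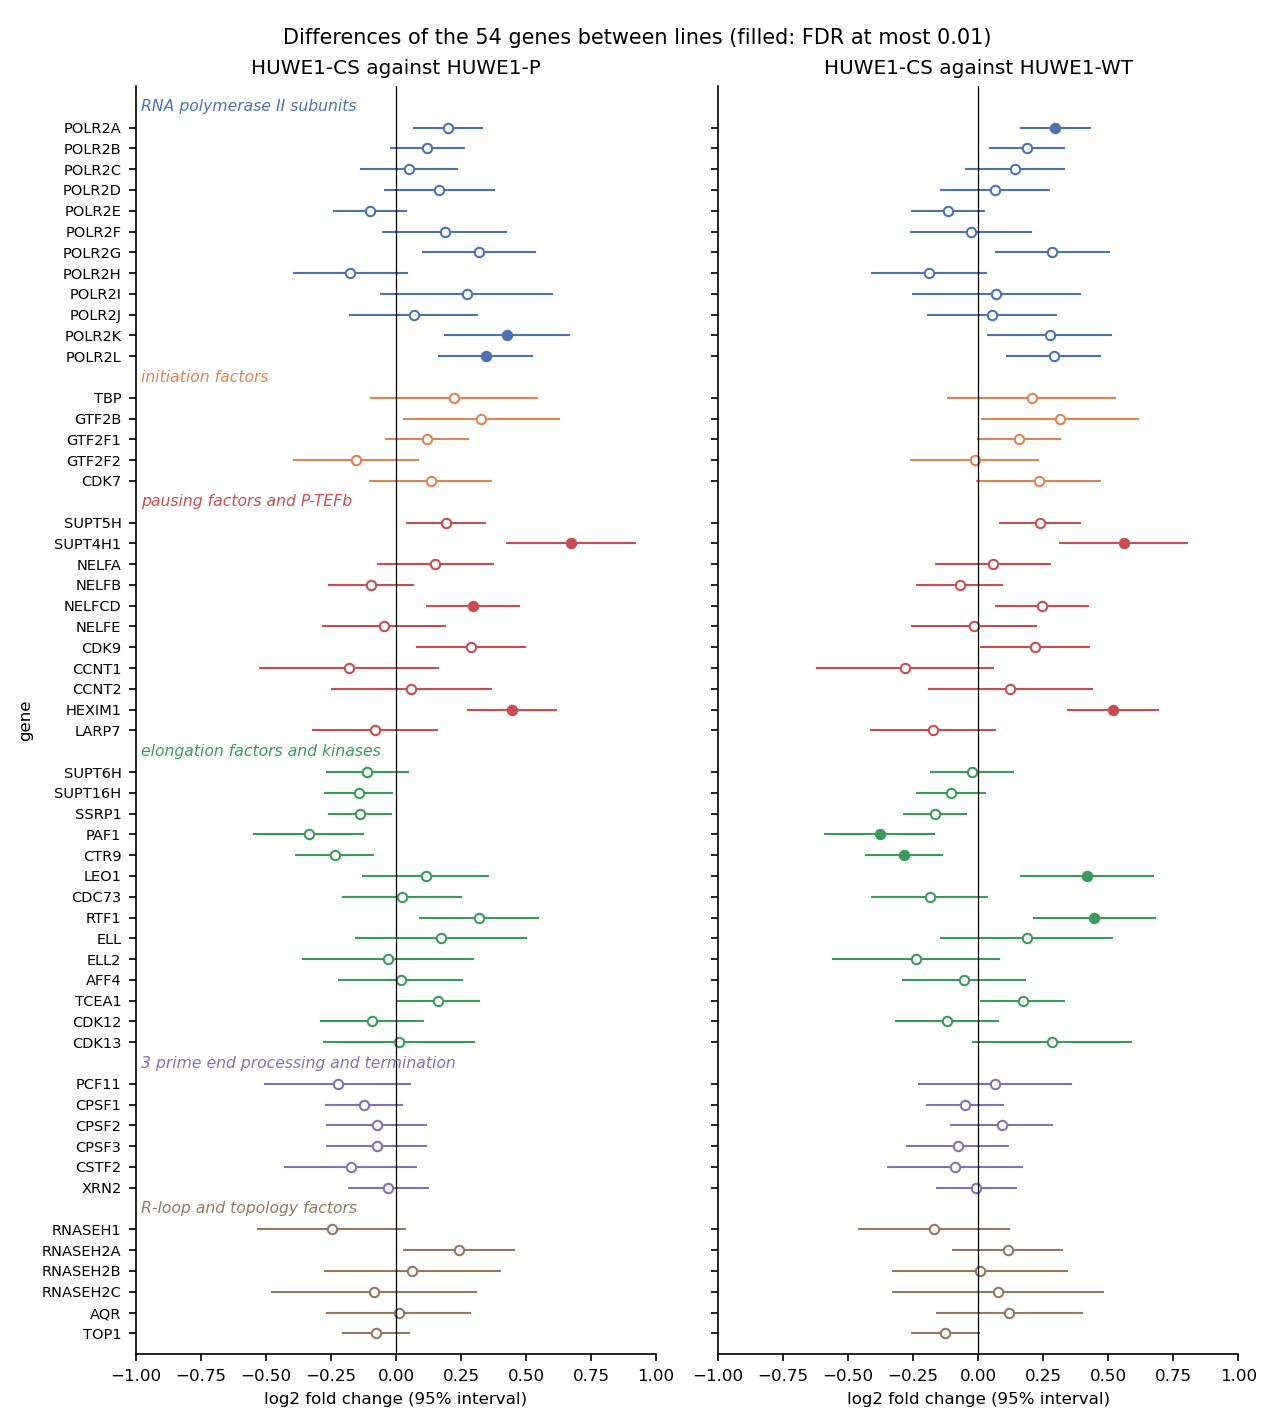
Log2 fold change of each of the 54 genes (point) with its 95% interval (line) in HUWE1-CS against HUWE1-P cells (left) and against HUWE1-WT cells (right), by role; filled points passed an FDR of 0.01, all other points are open. SUPT4H1 and HEXIM1 are filled on both sides, and none of the initiation, termination or R-loop genes is filled.

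Levels per kilobase of the canonical transcript put the members on one scale, as far as that length matches the transcripts counted. The annotation used for counting is not given, and the SDs between replicates do not cover this uncertainty. In HUWE1-P cells they ran from 4.45 ± 0.326 CPM per kb (SD, n = 3) for the kinase CDK13 to 223 ± 6.26 CPM per kb for SSRP1, a subunit of the histone chaperone FACT. POLR2L (148 ± 18.7 CPM per kb), TOP1 (119.8 ± 0.419 CPM per kb), SUPT16H (106 ± 7.46 CPM per kb) and POLR2E (106 ± 5.03 CPM per kb) followed, and the cyclins CCNT1 (4.77 ± 0.86 CPM per kb) and CCNT2 (5.59 ± 0.391 CPM per kb) of P-TEFb and AQR (5.55 ± 1.01 CPM per kb) lay near the low end. CDK13 and CCNT1 differed by less than their SD, whereas SSRP1 stood above POLR2L by more than the SD of both. Of DSIF, SUPT5H measured 53.7 ± 4.37 and SUPT4H1 34.9 ± 2.99 CPM per kb, further apart than the SD of either. The large polymerase subunits POLR2A (67.6 ± 5.60 CPM per kb) and POLR2B (68.2 ± 1.11 CPM per kb) differed by less than the SD of POLR2A.

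Among the 11 pausing genes, 3 rose against HUWE1-P cells (SUPT4H1, NELFCD and HEXIM1), 2 rose against HUWE1-WT cells (SUPT4H1 and HEXIM1) and none fell in either comparison. The shares called were 27.3% and 18.2%, beside 17.0% and 15.5% of all genes (8.46% and 7.42% called higher). SUPT4H1 encodes SPT4, the small subunit of the pausing factor DSIF, and was measured at 55.9, 47.1 and 53.0 CPM in HUWE1-P, 50.4, 63.8 and 54.1 CPM in HUWE1-WT and 79.5, 97.5 and 71.4 CPM in HUWE1-CS cells. All 3 HUWE1-CS libraries lay above all control libraries, with the second replicate highest. SUPT4H1 was 1.60-fold higher than in HUWE1-P cells (log2 0.67, SE 0.124, edgeR's quasi-likelihood test, adjusted p = 8.12e-06) and 1.47-fold higher than in HUWE1-WT cells (log2 0.56, adjusted p = 0.000218). This was the largest difference of the 54 genes in both comparisons as fitted, but against HUWE1-WT cells HEXIM1 was above SUPT4H1 without HUWE1-CS replicate 2 or HUWE1-WT replicate 1 and with the trend with transcript length removed (log2 0.57 and 0.48, with RTF1 at 0.52). The call of SUPT4H1 against HUWE1-WT cells was lost without HUWE1-CS replicate 2 (adjusted p = 0.0143).

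HEXIM1, the inhibitor of P-TEFb on the 7SK RNA, was measured at 133, 124 and 124 CPM in HUWE1-P, 119, 121 and 122 CPM in HUWE1-WT and 158, 187 and 174 CPM in HUWE1-CS cells. The controls spanned a narrow range and every HUWE1-CS library lay above it. HEXIM1 was 1.36-fold higher than in HUWE1-P cells (log2 0.45, SE 0.0856, edgeR's quasi-likelihood test, adjusted p = 1.86e-05) and 1.43-fold higher than in HUWE1-WT cells (log2 0.52, SE 0.0868, adjusted p = 1.18e-06). It was called in both comparisons under every setting tried. The kinase subunit of P-TEFb, CDK9, was measured at 76.3, 80.8 and 83.8 CPM in HUWE1-P, 79.4, 90.0 and 84.3 CPM in HUWE1-WT and 97.9, 108 and 89.4 CPM in HUWE1-CS cells. The HUWE1-CS libraries overlapped the HUWE1-WT ones, and CDK9 had a log2 fold change of 0.29 against HUWE1-P cells (adjusted p = 0.0314) and 0.22 against HUWE1-WT cells (adjusted p = 0.123), neither called. Its cyclins were not called either, at log2 fold changes of -0.18 (95% interval -0.52 to 0.16) for CCNT1 and 0.06 (-0.25 to 0.37) for CCNT2 against HUWE1-P cells, nor was LARP7, the protein that holds the 7SK RNA (-0.08, interval -0.32 to 0.16).

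Of the 4 genes of NELF, only NELFCD, which encodes the NELF-C or NELF-D subunit, was called. NELFCD was measured at 113, 122 and 135 CPM in HUWE1-P, 135, 124 and 127 CPM in HUWE1-WT and 145, 165 and 146 CPM in HUWE1-CS cells. Its HUWE1-CS libraries lay above all 6 controls, with the highest control libraries reaching 135 CPM. It was 1.23-fold higher than in HUWE1-P cells (log2 0.30, adjusted p = 0.00752) and did not pass against HUWE1-WT cells (log2 0.24, adjusted p = 0.0333). The call was lost without HUWE1-P replicate 1 or 2 or HUWE1-CS replicate 1 or 2 (adjusted p between 0.0104 and 0.0687), with DESeq2 (adjusted p = 0.0438) and with total counts (adjusted p = 0.0151). The other three NELF genes had log2 fold changes against HUWE1-P cells of 0.15 (NELFA), -0.10 (NELFB) and -0.04 (NELFE), and none was called. SUPT5H, the large subunit of DSIF, was measured at 198, 181 and 213 CPM in HUWE1-P, 194, 198 and 184 CPM in HUWE1-WT and 219.6, 240.5 and 219 CPM in HUWE1-CS cells. All HUWE1-CS libraries of SUPT5H lay above all controls, and it did not pass in either comparison (log2 0.19, adjusted p = 0.0493, and log2 0.24, adjusted p = 0.0152).

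The promoters of SUPT4H1 and HEXIM1, the pair that rose in both comparisons, and of PAF1 and CTR9, the pair that fell against HUWE1-WT cells, are shown because these pairs moved together. Each sequence is the stretch of 250 bases before the transcription start of the RefSeq annotation on GRCh38.p14, read 5′ to 3′ on the gene's strand, with motif matches in capitals. The motifs searched on both strands were the TATA box (TATAAA), the CCAAT box (CCAAT), the GC box (GGGCGG), the core bound by ETS factors (CCGGAA), a core bound by NRF1 (GCATGCGC) and the E-box (CACGTG), and no matches overlapped each other in these 4 promoters. HEXIM1 lies at chr17:45148225-45148474 (plus strand), SUPT4H1 at chr17:58352202-58352451 (minus strand), PAF1 at chr19:39391107-39391356 (minus strand) and CTR9 at chr11:10750996-10751245 (plus strand).
HEXIM1: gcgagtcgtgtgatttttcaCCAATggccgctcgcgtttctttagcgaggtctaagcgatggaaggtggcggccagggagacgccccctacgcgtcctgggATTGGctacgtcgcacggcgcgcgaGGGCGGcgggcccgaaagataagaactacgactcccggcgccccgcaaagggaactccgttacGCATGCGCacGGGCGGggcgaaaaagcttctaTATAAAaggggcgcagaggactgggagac
SUPT4H1: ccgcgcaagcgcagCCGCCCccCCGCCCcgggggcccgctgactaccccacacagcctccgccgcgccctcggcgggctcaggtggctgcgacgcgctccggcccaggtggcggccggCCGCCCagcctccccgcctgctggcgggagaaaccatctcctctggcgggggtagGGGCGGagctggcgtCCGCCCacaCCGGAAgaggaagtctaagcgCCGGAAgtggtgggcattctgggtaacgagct
PAF1: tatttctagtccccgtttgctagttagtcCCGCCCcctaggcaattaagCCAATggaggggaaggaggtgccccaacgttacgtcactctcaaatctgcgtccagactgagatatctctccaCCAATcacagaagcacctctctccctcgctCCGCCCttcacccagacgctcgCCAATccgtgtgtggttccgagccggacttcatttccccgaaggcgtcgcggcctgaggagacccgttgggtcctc
CTR9: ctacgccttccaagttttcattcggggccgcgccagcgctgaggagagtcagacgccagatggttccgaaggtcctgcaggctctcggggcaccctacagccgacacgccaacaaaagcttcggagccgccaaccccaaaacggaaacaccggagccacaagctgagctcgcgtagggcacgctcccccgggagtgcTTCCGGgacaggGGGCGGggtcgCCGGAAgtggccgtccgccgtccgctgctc
The HEXIM1 promoter holds the TATA box at 29 to 24 bases before the start and the NRF1 core at 61 to 54 bases, with 2 GC boxes and 2 CCAAT boxes, 1 of the latter as its reverse complement (ATTGG). SUPT4H1 holds the ETS core at 53 to 48 and at 32 to 27 bases and 5 GC boxes, 4 of them as the reverse complement. PAF1 holds 3 CCAAT boxes and 2 GC boxes, and CTR9 holds the ETS core at 30 to 25 bases, its reverse complement at 53 to 48 bases and 1 GC box. Of the 35116 promoters of the table, 10.7% held the TATA box in the same window on either strand, 32.0% the CCAAT box, 42.6% the GC box, 14.5% the ETS core, 2.63% the NRF1 core and 6.34% the E-box. These matches describe letters and were not tested as binding sites.

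Of the 12 polymerase subunits, 2 rose against HUWE1-P cells (POLR2K and POLR2L), 1 rose against HUWE1-WT cells (POLR2A) and none fell, or 16.7% and 8.33% called beside 17.0% and 15.5% of all genes. POLR2A, which encodes the catalytic subunit with the C-terminal repeat domain, lies at chr17:7387685-7417933 on GRCh37 with 30 exons. It was measured at 426, 461 and 391 CPM in HUWE1-P, 428, 381 and 386 CPM in HUWE1-WT and 500.3, 450.3 and 516 CPM in HUWE1-CS cells. The lowest HUWE1-CS library fell inside the range of HUWE1-P cells, and all 3 lay above HUWE1-WT cells. POLR2A was 1.23-fold higher than in HUWE1-WT cells (log2 0.30, SE 0.0668, edgeR's quasi-likelihood test, adjusted p = 0.000328), a call kept under every setting. Against HUWE1-P cells it did not pass (log2 0.20, adjusted p = 0.0166), and it passed without HUWE1-P replicate 2, HUWE1-WT replicate 2 or HUWE1-CS replicate 2 (adjusted p between 0.00264 and 0.00865). It also passed there in a fit of the compared lines alone. The second largest subunit, POLR2B, had log2 fold changes of 0.12 and 0.19 against HUWE1-P and HUWE1-WT cells, with an adjusted p of 0.219 and 0.0439.

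POLR2K and POLR2L encode the small subunits RPB12 and RPB10, which all 3 nuclear RNA polymerases share. POLR2K was measured at 56.5, 52.8 and 56.9 CPM in HUWE1-P, 55.0, 66.0 and 63.4 CPM in HUWE1-WT and 76.6, 72.6 and 74.3 CPM in HUWE1-CS cells. All HUWE1-CS libraries lay above all controls; it was 1.34-fold higher than in HUWE1-P cells (log2 0.43, SE 0.12, adjusted p = 0.00439) and did not pass against HUWE1-WT cells (log2 0.27, adjusted p = 0.0801). The call was lost without HUWE1-P replicate 1, 2 or 3 or HUWE1-CS replicate 1 or 3 (adjusted p between 0.0106 and 0.0242) and with DESeq2 (adjusted p = 0.0342). POLR2L was measured at 135, 143 and 111 CPM in HUWE1-P, 119.9, 152 and 129.7 CPM in HUWE1-WT and 159, 174 and 159 CPM in HUWE1-CS cells. The HUWE1-CS libraries again lay above all controls, by a small margin over the second HUWE1-WT library. POLR2L was 1.27-fold higher than in HUWE1-P cells (log2 0.34, adjusted p = 0.00189) and just missed the threshold against HUWE1-WT cells (log2 0.29, adjusted p = 0.011). Its call against HUWE1-P cells was lost without HUWE1-P replicate 3 or HUWE1-CS replicate 2 (adjusted p between 0.0162 and 0.0824) and with DESeq2 (adjusted p = 0.0241), and it was gained against HUWE1-WT cells without HUWE1-P replicate 2 or 3 or HUWE1-WT replicate 2 (adjusted p between 0.00149 and 0.00991). POLR2L was also called against HUWE1-WT cells with RLE scaling, a robust fit or the replicate number as a block.

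The other subunits were not called in either comparison. POLR2G, whose product binds the polymerase together with that of POLR2D, had a log2 fold change of 0.32 against HUWE1-P cells (95% interval 0.10 to 0.54, adjusted p = 0.0206), and POLR2D one of 0.17 (-0.04 to 0.38). Of the subunits shared with the other polymerases, POLR2E (-0.10) and POLR2H (-0.18) had negative and POLR2F (0.19) a positive log2 fold change. POLR2C, POLR2I and POLR2J had 0.05, 0.27 and 0.07. The counts of POLR2J are uncertain, since near-identical genes (POLR2J2, POLR2J3 and POLR2J4) are in the table and reads can be split between them, and exons of POLR2C, POLR2E and POLR2J overlap exons of DOK4, ARHGAP45 and LRWD1 on the opposite strand by 88, 55 and 41 bases, which counts from a kit that does not keep strand cannot tell apart.

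The 14 elongation genes gave no call against HUWE1-P cells in edgeR's quasi-likelihood test, DESeq2 or limma-voom. Of the 14, 6 had an unadjusted p under 0.05 there in edgeR's quasi-likelihood test, beside 4100 of all 11350 genes. Against HUWE1-WT cells 4 were called (28.6%, beside 15.5% of all genes), all 4 in the PAF1 complex. In that comparison DESeq2 called 0 of the 14 genes and limma-voom 3, and the shares over all genes by these tools are not given here. The PAF1 complex has 5 genes here, and its members moved in opposite directions against HUWE1-WT cells: PAF1 and CTR9 fell and LEO1 and RTF1 rose. PAF1 was measured at 90.0, 96.5 and 102 CPM in HUWE1-P, 101, 102 and 94.8 CPM in HUWE1-WT and 74.2, 76.0 and 79.0 CPM in HUWE1-CS cells. All HUWE1-CS libraries lay below all controls, at 76.4 ± 2.42 CPM (mean ± SD, n = 3). The log2 fold change of PAF1 was -0.38 against HUWE1-WT cells (SE 0.105, adjusted p = 0.00396) and -0.34 against HUWE1-P cells, where it just missed the threshold (adjusted p = 0.0111). The call was lost without HUWE1-WT replicate 1 or 2 or HUWE1-CS replicate 1 or 2 (adjusted p between 0.0152 and 0.022) and with DESeq2 (adjusted p = 0.037). With total counts PAF1 passed against HUWE1-P cells as well. PAF1 shares 72 exon bases, or 3.27% of its transcript, with SAMD4B on the opposite strand.

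CTR9, the scaffold subunit, was measured at 253, 229 and 253 CPM in HUWE1-P, 251, 245 and 265 CPM in HUWE1-WT and 205, 201 and 218 CPM in HUWE1-CS cells. It too lay below all controls in every HUWE1-CS library, with a log2 fold change of -0.29 against HUWE1-WT cells (adjusted p = 0.00188) and -0.24 against HUWE1-P cells (adjusted p = 0.0109). The call against HUWE1-WT cells was lost without HUWE1-WT replicate 3 or HUWE1-CS replicate 1 or 2 (adjusted p between 0.012 and 0.0236) and with DESeq2 (adjusted p = 0.0159), and CTR9 was called against HUWE1-P cells without HUWE1-P replicate 2 or HUWE1-WT replicate 1 (adjusted p between 0.0067 and 0.00842). RTF1, which binds the complex more loosely in human cells, was measured at 59.6, 67.9 and 71.3 CPM in HUWE1-P, 61.4, 58.3 and 63.4 CPM in HUWE1-WT and 87.8, 86.8 and 74.9 CPM in HUWE1-CS cells. Its HUWE1-CS libraries lay above all controls, the third by a small margin over the third HUWE1-P library. RTF1 was 1.36-fold higher than in HUWE1-WT cells (log2 0.45, adjusted p = 0.00211) and did not pass against HUWE1-P cells (log2 0.32, adjusted p = 0.0278). The call was lost without HUWE1-WT replicate 2 or HUWE1-CS replicate 1 or 2 (adjusted p between 0.0121 and 0.0175) and with DESeq2 (adjusted p = 0.0224).

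LEO1 was measured at 60.2, 64.0 and 61.7 CPM in HUWE1-P, 52.7, 47.4 and 50.6 CPM in HUWE1-WT and 58.2, 71.5 and 71.4 CPM in HUWE1-CS cells. The HUWE1-WT libraries were the lowest, below all libraries of HUWE1-P and HUWE1-CS cells, and HUWE1-CS and HUWE1-P cells overlapped. LEO1 was 1.34-fold higher in HUWE1-CS than in HUWE1-WT cells (log2 0.42, adjusted p = 0.00936), with a log2 fold change of 0.11 against HUWE1-P cells (adjusted p = 0.537) and -0.30 in HUWE1-WT relative to HUWE1-P cells (95% interval -0.56 to -0.05, adjusted p = 0.807). The call was lost without HUWE1-P replicate 1 or 3, HUWE1-WT replicate 1, 2 or 3 or HUWE1-CS replicate 2 or 3 (adjusted p between 0.0102 and 0.0463) and with DESeq2 (adjusted p = 0.0597) and limma-voom (adjusted p = 0.0116). It was also lost with total counts and in a fit of the compared lines alone. Of 20 alternative settings, 7 kept the call of LEO1. CDC73, the remaining gene of the complex, had log2 fold changes of 0.02 and -0.19 against HUWE1-P and HUWE1-WT cells and was not called.

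Outside the PAF1 complex no elongation gene was called. The FACT subunits SSRP1 and SUPT16H had log2 fold changes of -0.14 (95% interval -0.26 to -0.02) and -0.14 (-0.27 to -0.01) against HUWE1-P cells, and SSRP1 was below all 6 controls in every HUWE1-CS library. SUPT6H, the histone chaperone SPT6, had -0.11, and TCEA1, the factor that restarts arrested polymerases, 0.16. The subunits of super elongation complexes ELL, ELL2 and AFF4 had log2 fold changes of 0.17, -0.03 and 0.02. CDK12, a kinase of the C-terminal domain in gene bodies, was measured at 116, 106 and 122 CPM in HUWE1-P, 125, 113 and 112 CPM in HUWE1-WT and 102, 95.3 and 125 CPM in HUWE1-CS cells. These ranges overlapped (log2 -0.09 against HUWE1-P cells, 95% interval -0.29 to 0.10), as did those of its relative CDK13 (log2 0.01, interval -0.28 to 0.30).

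None of the 5 initiation genes was called in either comparison by edgeR's quasi-likelihood test, DESeq2 or limma-voom. In each comparison 1 of 5 had an unadjusted p under 0.05 by the first, beside 4100 (HUWE1-P) and 3968 (HUWE1-WT) of all 11350 genes. GTF2B, the factor that bridges the promoter-bound TATA-binding protein and the polymerase, had the smallest p. It was measured at 31.7, 39.3 and 34.7 CPM in HUWE1-P, 33.6, 39.3 and 33.7 CPM in HUWE1-WT and 43.9, 42.0 and 47.0 CPM in HUWE1-CS cells. All HUWE1-CS libraries lay above all controls, with a log2 fold change of 0.33 (95% interval 0.03 to 0.62, adjusted p = 0.0975) against HUWE1-P and 0.31 against HUWE1-WT cells (adjusted p = 0.12). The other four had log2 fold changes against HUWE1-P cells of 0.22 (TBP), 0.12 and -0.15 (the subunits of TFIIF) and 0.13 (CDK7, the kinase of TFIIH).

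Among the 6 genes of 3′ end processing and termination none was called. All 6 had a negative log2 fold change against HUWE1-P cells, between -0.22 and -0.03 with a median of -0.10. Against HUWE1-WT cells 4 of 6 were negative (median -0.03), and in HUWE1-WT relative to HUWE1-P cells 5 of 6 were (median -0.08). With the trend with transcript length removed, the medians against HUWE1-P and HUWE1-WT cells were -0.08 and 0.03. The 95% intervals together spanned -0.50 to 0.12 against HUWE1-P cells. Against either control line 0 of 6 had an unadjusted p under 0.05 in edgeR's quasi-likelihood test, beside 4100 and 3968 of all 11350 genes. DESeq2 and limma-voom also called 0. CPSF1, the largest subunit of the cleavage and polyadenylation specificity factor, had the smallest p and was measured at 268, 235 and 249.6 CPM in HUWE1-P, 253, 221 and 241 CPM in HUWE1-WT and 228, 235 and 227 CPM in HUWE1-CS cells (log2 -0.12, adjusted p = 0.222). XRN2, the exonuclease that degrades the RNA behind the cleaved end, was measured at 215, 195 and 220.2 CPM in HUWE1-P, 206, 201 and 215 CPM in HUWE1-WT and 206, 213 and 199 CPM in HUWE1-CS cells. The 3 lines overlapped in both genes, and XRN2 had a log2 fold change of -0.03 against HUWE1-P cells with an interval of -0.18 to 0.12. PCF11, which binds the C-terminal domain at the end of genes, had -0.22 (-0.50 to 0.05), CSTF2 -0.17, CPSF2 -0.08 and CPSF3, the endonuclease, -0.07.

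The 6 R-loop and topology genes gave no call either by edgeR's quasi-likelihood test, DESeq2 or limma-voom. By the first, 1 of 6 had an unadjusted p under 0.05 against HUWE1-P cells, beside 4100 of all 11350 genes. Against HUWE1-WT cells 0 of 6 had, beside 3968 of all genes. RNASEH1, the RNase H that acts as a single protein, was measured at 48.4, 51.1 and 53.0 CPM in HUWE1-P, 42.3, 44.7 and 58.1 CPM in HUWE1-WT and 36.8, 40.8 and 51.1 CPM in HUWE1-CS cells. The ranges overlapped, with a log2 fold change of -0.25 against HUWE1-P (95% interval -0.53 to 0.04) and -0.17 against HUWE1-WT cells (-0.46 to 0.12). RNASEH2A, the catalytic subunit of RNase H2, had the smallest p of the group and was measured at 80.1, 74.1 and 100.2 CPM in HUWE1-P, 82.9, 98.7 and 98.8 CPM in HUWE1-WT and 99.7, 104 and 99.9 CPM in HUWE1-CS cells. The HUWE1-CS libraries lay close together at the upper end of the control range, and the log2 fold change of 0.24 against HUWE1-P cells did not pass (adjusted p = 0.0817). Its partners RNASEH2B and RNASEH2C had 0.06 (-0.27 to 0.40) and -0.08 (-0.48 to 0.31), the latter with 28.5, 28.9 and 13.9 CPM in the HUWE1-CS libraries and with 30.2% of its transcript overlapping exons of KAT5 on the opposite strand.

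AQR, the R-loop helicase aquarius, was measured at 50.3, 45.5 and 64.1 CPM in HUWE1-P, 53.9, 42.0 and 54.1 CPM in HUWE1-WT and 57.6, 43.1 and 62.1 CPM in HUWE1-CS cells. The ranges of the 3 lines overlapped, and the log2 fold change was 0.01 against HUWE1-P cells with an interval of -0.26 to 0.28. TOP1, the topoisomerase that relaxes supercoils around the moving polymerase, was measured at 449, 446 and 447 CPM in HUWE1-P, 443, 477 and 469 CPM in HUWE1-WT and 457, 405 and 409.9 CPM in HUWE1-CS cells. HUWE1-CS libraries overlapped both controls (log2 -0.08, interval -0.20 to 0.05, and -0.13, interval -0.25 to 0.00). Differences of the size seen for SUPT4H1 lie outside all these intervals against HUWE1-P cells, which reach from -0.53 to 0.45 at their widest, while smaller differences lie within them for the genes of low counts. By length, RNASEH2A (72.8 ± 11.8 CPM per kb in HUWE1-P cells) stood above RNASEH2B (20.9 ± 2.19 CPM per kb) and RNASEH2C (9.51 ± 0.46 CPM per kb), the enzyme's other subunits.

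**Figure D2:**
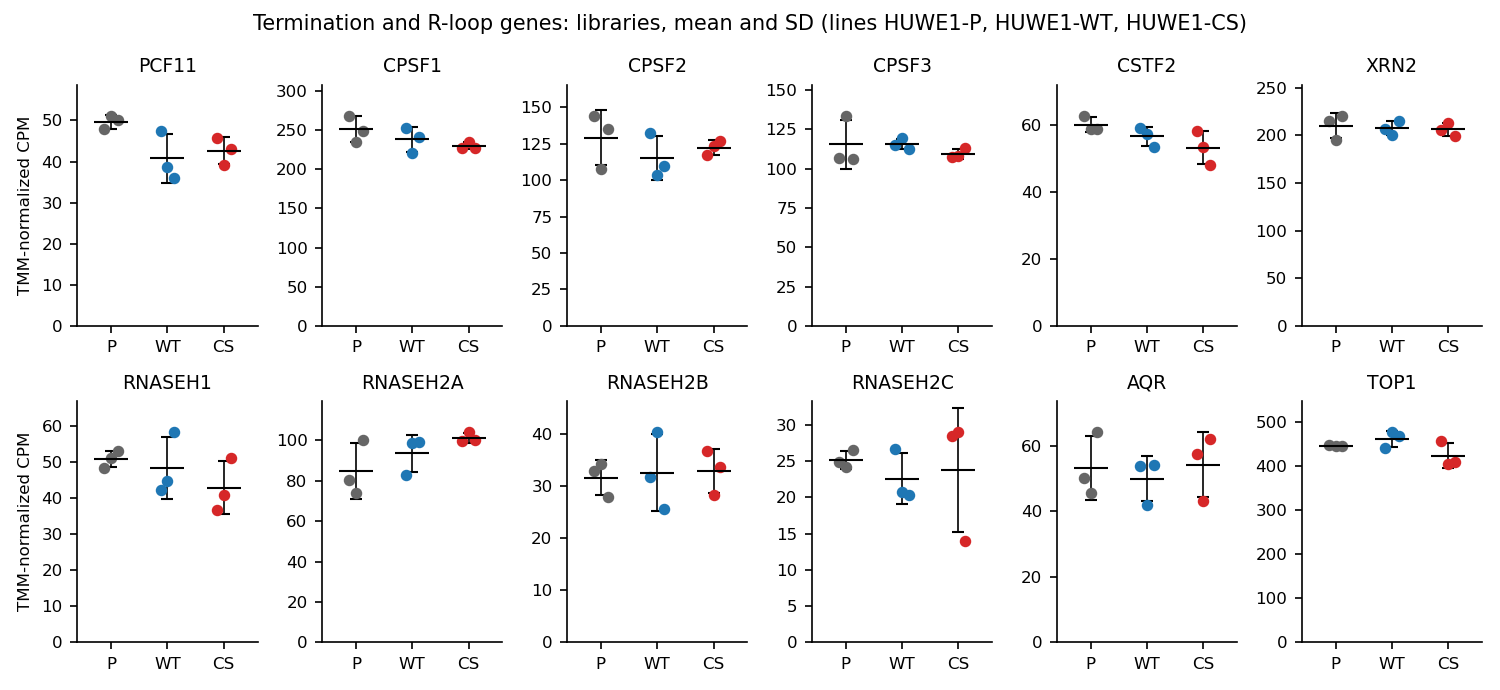
Normalized CPM of the 6 termination genes (top) and the 6 R-loop and topology genes (bottom) in the 3 libraries of each line (points), with the mean (horizontal bar) and SD (error bar), on linear axes from 0. The 3 lines overlap in most panels and no gene was called in either comparison; RNASEH2C had 1 HUWE1-CS library at 13.9 CPM.

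Differences in HUWE1-CS cells went with transcript length across the whole table, and these genes shared that relation. Over 10827 genes with a length, Spearman's rho between log2 fold change and transcript length was -0.26 against HUWE1-P, -0.20 against HUWE1-WT and -0.15 in HUWE1-WT relative to HUWE1-P cells; over the 54 members it was -0.41, -0.24 and -0.32. The points are genes measured in the same libraries and are no independent replicates. When all genes were split by length into 5 groups of like size, the shortest group (up to 1820 bases, 13 members) had a median of 0.13 on the log2 scale in the comparison with HUWE1-P cells and the longest (from 5813 bases, 12 members) a median of -0.12. The 5 polymerase subunits with the shortest transcripts, of 443 to 947 bases, POLR2G, POLR2I, POLR2J, POLR2K and POLR2L, all had positive log2 fold changes against HUWE1-P cells, with a median of 0.32, and of 0.16 once the trend with length was removed. POLR2J was then negative (-0.09). Against HUWE1-WT cells all 5 were positive as fitted (median 0.27), and POLR2I (-0.09) and POLR2J (-0.08) were negative with the trend removed.

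With that trend removed from every library, 6 members were called against HUWE1-P cells, 5 higher and 1 lower, beside 16.8% of all genes, and 7 against HUWE1-WT cells, 6 higher and 1 lower, beside 15.8%. SUPT4H1 (log2 0.56, adjusted p = 0.000132) and HEXIM1 (log2 0.50, adjusted p = 9.97e-07) were called in both. Against HUWE1-P cells POLR2K (adjusted p = 0.0801), POLR2L (0.0925) and NELFCD (0.0191) were no longer called, and POLR2A (log2 0.31, adjusted p = 2.13e-05), SUPT5H (log2 0.24, adjusted p = 0.00717), RTF1 (log2 0.41, adjusted p = 0.00312) and PAF1 (log2 -0.38, adjusted p = 0.00295) were. Against HUWE1-WT cells CTR9 (adjusted p = 0.0146) and LEO1 (0.013) were no longer called, and POLR2B (log2 0.25, adjusted p = 0.00395) and SUPT5H (log2 0.29, adjusted p = 0.00129) were. The cause of the trend with length was not tested.

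Between the control lines the members differed little. The median absolute log2 fold change of HUWE1-WT against HUWE1-P cells was 0.0719 over the 54 genes, beside 0.102 over all genes, and the 2 members with an unadjusted p under 0.05 were LEO1 (log2 -0.30) and PCF11 (log2 -0.29, 95% interval -0.57 to -0.01, adjusted p = 0.888). The largest positive values were those of POLR2F (0.21) and CDC73 (0.21). SUPT4H1 (0.11) and HEXIM1 (-0.07) had intervals of -0.15 to 0.38 and -0.25 to 0.11.

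A wider list of 149 genes of the same pathway, likewise chosen with earlier results of these data known, had 146 genes in the table. It gave 18 calls against HUWE1-P cells (12.3%, 12 higher and 6 lower) and 16 against HUWE1-WT cells (11.0%, 10 higher and 6 lower), beside 17.0% and 15.5% of all genes. Between the control lines it gave 0 calls, and 7 of 146 had an unadjusted p under 0.05 in edgeR's quasi-likelihood test, beside 629 of all 11350 genes. None of the 32 Mediator genes was called in either comparison by edgeR's quasi-likelihood test, DESeq2 or limma-voom. In the first, 8 and 5 of them had an unadjusted p under 0.05, beside 4100 and 3968 of all 11350 genes. Of 27 genes of TFIID, TFIIA, TFIIE and TFIIH, 4 rose against HUWE1-P (14.8%) and 2 against HUWE1-WT cells (7.41%), the one with the smallest p being GTF2H3, a core subunit of TFIIH (log2 0.58 against HUWE1-P cells, adjusted p = 7.38e-06). Of 14 Integrator genes 2 rose in each comparison (14.3%), led by INTS3 (log2 0.51 against HUWE1-P cells, adjusted p = 0.000209). Of 29 other elongation and 7SK genes 3 rose and 1 fell in each comparison (13.8%). Against HUWE1-P cells ELOB, the elongin B subunit, had the smallest p among the higher (log2 0.68, adjusted p = 2.02e-10) and MLLT1, a subunit of super elongation complexes, was the lower one (log2 -0.48, adjusted p = 0.000217). MEPCE, which caps the 7SK RNA on which HEXIM1 acts, was also higher (log2 0.54, adjusted p = 5.74e-06) and is named after its value was seen.

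Of 19 other genes of 3′ end processing 1 was called against HUWE1-P cells (5.26%) and 2 against HUWE1-WT cells (10.5%). PAPOLA, a poly(A) polymerase, fell in both (log2 -0.28, adjusted p = 0.000888, and log2 -0.29, adjusted p = 0.000714). Against HUWE1-P cells DESeq2 called 0 of the 19 genes, and PAPOLA did not pass with the length trend removed (adjusted p = 0.0104). CSTF1, a subunit of the cleavage stimulation factor, rose against HUWE1-WT cells (log2 0.45, adjusted p = 0.0065). Of 25 R-loop helicases, THO subunits, topoisomerases and related genes 3 rose and 4 fell against HUWE1-P cells (28.0% called, beside 17.0% of all genes), and 2 rose and 4 fell against HUWE1-WT cells (24.0%, beside 15.5%). The calls in both comparisons include WRNIP1 (higher) and SRSF1 (lower), counted as related genes. SRSF1 did not pass against HUWE1-WT cells with the length trend removed (adjusted p = 0.0967, edgeR's quasi-likelihood test). DESeq2 called 5 and 3 of the 25, and its shares over all genes are not given here. Against HUWE1-P cells the smallest p among the lower was that of DDX39A, an RNA helicase of mRNA export (log2 -0.61, adjusted p = 1.03e-09), and among the higher that of WRNIP1, the fork-associated ATPase that the study examined. WRNIP1 was measured at 152, 141 and 130.1 CPM in HUWE1-P, 148, 149 and 137 CPM in HUWE1-WT and 192, 175 and 187 CPM in HUWE1-CS cells. All HUWE1-CS libraries lay above all controls, at a log2 fold change of 0.39 against HUWE1-P (adjusted p = 0.0001) and 0.35 against HUWE1-WT cells (adjusted p = 0.00062).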

How the data were processed

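Polyadenylated RNA of 9 libraries (3 of each line) was prepared with a kit that does not keep strand and sequenced. The authors demultiplexed with bcl2fastq 2.20, mapped to hg19 with STAR 2.5.4 and deposited raw counts per gene for 11350 genes. The counting tool, annotation and low-count filter are not given in the sources used here. Their deposited comparison tables (edgeR 3.26.8: log2 fold changes, mean log2 CPM, F, p-values and FDR) were not used. Depth was 1610984 to 2060349 counts per library.

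Counts were tested with edgeR 4.0.16 in R 4.3.3 (TMM, glmQLFit with legacy = TRUE, glmQLFTest, all 9 libraries, line as the only term, Benjamini-Hochberg over all 11350 genes, FDR at most 0.01), and checked on simulated data. CPM are TMM-normalized. Intervals are 95% intervals of the fit. Positions, lengths and exon overlaps came from GENCODE on GRCh37 (canonical transcript), promoters from RefSeq on GRCh38.p14 (46 of 54 genes matched). The trend with length was removed as an offset per library from a spline with 4 degrees of freedom on log2 length. Alternatives were DESeq2 1.42.0, limma-voom 3.58.1, other scalings, filters and estimators, omission of each library, and the replicate number as a block. Replicate pairs differed by more than sampling noise (chi-square per degree of freedom 1.16 to 1.65). The 147 genes without a symbol held 0.505% of counts.

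Values per library are given for members called in any comparison, the member of smallest p in each role and 9 genes named by choice (POLR2A, SUPT5H, CDK9, CDK12, PAF1, XRN2, RNASEH1, AQR and TOP1). Of the wider lists, the called gene of smallest p against HUWE1-P cells in each direction is named. CSTF1, MEPCE and SRSF1 were named after their values were seen. Members and lists were chosen with earlier results of these data known.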

Additional observations from a re-analysis of the deposited data

How the results depend on the processing

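Against HUWE1-P cells the 5 called members became 2 with DESeq2 (SUPT4H1 and HEXIM1), 12 at an FDR of 0.05 and 3 to 6 when each library was left out, with 3 without HUWE1-P replicate 1, HUWE1-CS replicate 1 or HUWE1-P replicate 3; the other settings gave 5 or 6. Against HUWE1-WT cells the 7 became 3 with DESeq2 (SUPT4H1, HEXIM1 and POLR2A), 13 at an FDR of 0.05 and 3 to 8 when each library was left out, with 4 without HUWE1-CS replicate 1 and 3 without HUWE1-CS replicate 2; the other settings gave 6 to 8. At an FDR of 0.05, 2999 of all 11350 genes were called against HUWE1-P cells and 2774 against HUWE1-WT cells. Counts over all genes with DESeq2, total counts, the replicate block or a library left out are not given here. HUWE1-WT against HUWE1-P cells gave 0 called members in every setting. Of the wider list DESeq2 called 12 genes in place of 18 against HUWE1-P and 9 in place of 16 against HUWE1-WT cells.

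Deviations of samples sharing a replicate number had correlations from -0.0195 to 0.0579, none over 0.1. Those of samples with different numbers ran from -0.0653 to 0.0333. Much of the deviation between replicates is sampling noise (chi-square per degree of freedom 1.16 to 1.65), so these correlations cannot decide whether the numbers pair the libraries. With the replicate number as a block 6 members were called against HUWE1-P cells (5 higher, 1 lower) and 8 against HUWE1-WT cells (6 higher, 2 lower), and with the block and the length trend removed 6 and 7.

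Among the alternative values of named members 706 kept their direction and side of the threshold, 27 passed it newly, 50 no longer passed it and 17 changed sign, all of the latter in genes near 0 and not called. Against HUWE1-P cells the log2 fold change of CDK12 turned to 0.0553 with the length trend removed and 0.0576 with the block too, that of XRN2 to 0.0113 and 0.0132, and that of AQR to -0.0139 with total counts. Leaving out a library gave -0.0804 to 0.00961 for XRN2 and -0.0951 to 0.181 for AQR. Against HUWE1-WT cells CPSF1 turned to 0.0198 and 0.0207 under the same settings and XRN2 to 0.0397 and 0.0400, with -0.0266 to 0.024 when a library was left out. The cause was not tested. Depth limits genes such as RNASEH2C, whose 95% interval against HUWE1-P cells reaches from -0.48 to 0.31.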

Other observations

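In the promoter window of 250 bases, GC boxes (GGGCGG or its reverse complement) were found in 32 of the 46 members with a promoter in the table, the ETS core in 20, the CCAAT box in 10, the E-box in 6, the NRF1 core in 5 and the TATA box in 2. Over all 35116 promoters the shares were 42.6%, 14.5%, 32.0%, 6.34%, 2.63% and 10.7%, in the same order. These counts take a member as holding a motif if any of its promoters does, were not tested, and describe letters only.

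HEXIM1 lies at chr17:43225842-43229466 on GRCh37 as a single exon with a transcript of 3625 bases, and SUPT4H1 at chr17:56422536-56430454 with 5 exons and 1488 bases.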
